A study of Homo sapiens with 12 samples.

Results

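The 48 genes described here encode proteins that build ribosomes in the nucleolus, and they were followed in HK-2 cells given 2,8-dihydroxyadenine (DHA). They were chosen by name, for their known roles and without a measured value in the rule, from the 16776 genes tested in the series. The choice was made with earlier results of these data known, so it was not blind to them. All 48 passed the filter on low values. HK-2 is an established line of human kidney proximal tubule epithelial cells, and DHA is the poorly soluble purine that forms kidney stones and crystals when the enzyme APRT is missing. The 4 groups were untreated cells in plain medium (control) and cells exposed for 72 h to a suspension of DHA in medium at 60, at 120 and at 240 ug/ml. Each group had 3 libraries, which makes 12. All groups are the same cell line with no change of genotype, and a control for a solvent is not described in the labels. RNA was selected for poly(A) tails and sequenced. The deposited value for a transcript is a normalized signal, and the values of a gene's transcripts were summed here.

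Ribosome assembly begins when RNA polymerase I transcribes ribosomal DNA into a long precursor. Small nucleolar ribonucleoproteins (snoRNPs) then guide its methylation and pseudouridylation, and large sets of assembly factors fold and cut the precursor into the RNAs of the small and the large subunit. Growing and dividing cells spend much of their transcription on this pathway, and the transcription factor MYC, which with MAX binds the DNA letters CACGTG (the E-box), is known to drive many of its genes. The 48 genes were placed in 7 groups by role: RNA polymerase I (4 genes), box C/D snoRNPs (4), box H/ACA snoRNPs (4), other abundant nucleolar proteins (5), early small-subunit factors (12), late small-subunit factors (5) and large-subunit factors (14).

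Library totals of the deposited signal ran from 791808 to 1228979, and the files hold no counts, so the read depth of each library is unknown. Epithelial markers were present (7 of 9 with a mean of at least 1), with a summed signal of 1025 to 1084 at 240 ug/ml and 1029 to 1069 in control. The markers in that sum went different ways. EPCAM averaged 161 at 240 ug/ml and 236 in control, KRT7 26.4 and 41.8, KRT8 11.5 and 25.1, and CDH2 66.6 and 71.5. KRT19 averaged 354 and 299, PAX8 274 and 231, and KRT18 155 and 145. Their part in the results was not tested. Of the proximal tubule markers, the endocytic receptor LRP2 and the transporter SLC22A6 were listed at 0 in all 12 libraries. Of 6 leukocyte markers, PTPRC, CD3E and MS4A1 were at 0 in all 12 libraries, CD14 and LYZ stayed below a mean of 1, and CD68, a lysosomal protein, averaged 82.9 at 240 ug/ml and 126 in control. The sum of that list was 72.4 to 99.4 at 240 ug/ml and 110.5 to 140.4 in control, and its part in the results was not tested either. None of 4 endothelial markers reached a mean of 1. The fibroblast markers COL1A1, DCN and LUM were present, and the sum of that list of 5 was 246.7 to 340.5 in control, 114.3 to 216.1 at 60, 66.6 to 76.3 at 120 and 38.7 to 65.6 at 240 ug/ml. It moved opposite to the ribosome biogenesis genes, and its part in the results was not tested. Of the 60 ug/ml libraries, the third differed from the first and second, with a score of 5.56 on principal component 1 (42.4% of the variance) where they had -12.62 and -19.97. In bulk RNA, a change in the mix of cells and a change in RNA per cell cannot be told apart.

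Ribosome biogenesis genes were broadly higher after DHA, from the nucleolar helicase DDX21 and the rRNA methyltransferase NOP2 to the polymerase subunit POLR1A. At 240 ug/ml 40 of the 48 genes were called higher than control and 1, NHP2, was called lower (limma, Benjamini-Hochberg adjusted p under 0.05). Over all genes tested, 19.7% were called higher and 23.5% lower in the same comparison. The median log2 fold change of the 48 was 0.70, beside -0.03 over all genes, and 45 of the 48 were above 0. At 120 ug/ml 39 were called higher and 0 lower, beside 15.9% and 20.8% of all genes, with a median of 0.58. At the lowest dose 20 were called higher and 0 lower, beside 8.87% and 10.1% of all genes, with a median of 0.33. At an unadjusted p under 0.05 limma had 1 gene lower at 120 and 1 at 60 ug/ml. No share of all genes was taken at that looser threshold, so these counts cannot be set against all genes. All fold changes are on the log2(value + 1) scale, which understates those of genes with low values.

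Separation of the libraries gave a similar picture. In 40 of the 48 genes every library at 240 ug/ml lay above every control library, against 24.2% of all genes, and in 1 gene (NHP2) every library lay below, against 28.7%. At 120 ug/ml 41 genes separated upward, against 21.7% of all genes, and 0 downward, against 27.3%. At 60 ug/ml 27 separated upward, against 16.1% of all genes, and NPM1 alone separated downward, against 20.3% of all genes. Within each group the third library had the highest median of the 48 genes. That median was 0.01 in the third control library, 0.59 at 60, 0.74 at 120 and 0.77 at 240 ug/ml, as a log2 difference from the control mean. The first and second libraries stood at 0.00 and -0.01 in control, 0.22 and 0.19 at 60, 0.54 and 0.44 at 120 and 0.64 and 0.64 at 240 ug/ml. The median over all genes lay between -0.04 and 0.02 in every library.

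**Figure D1:**
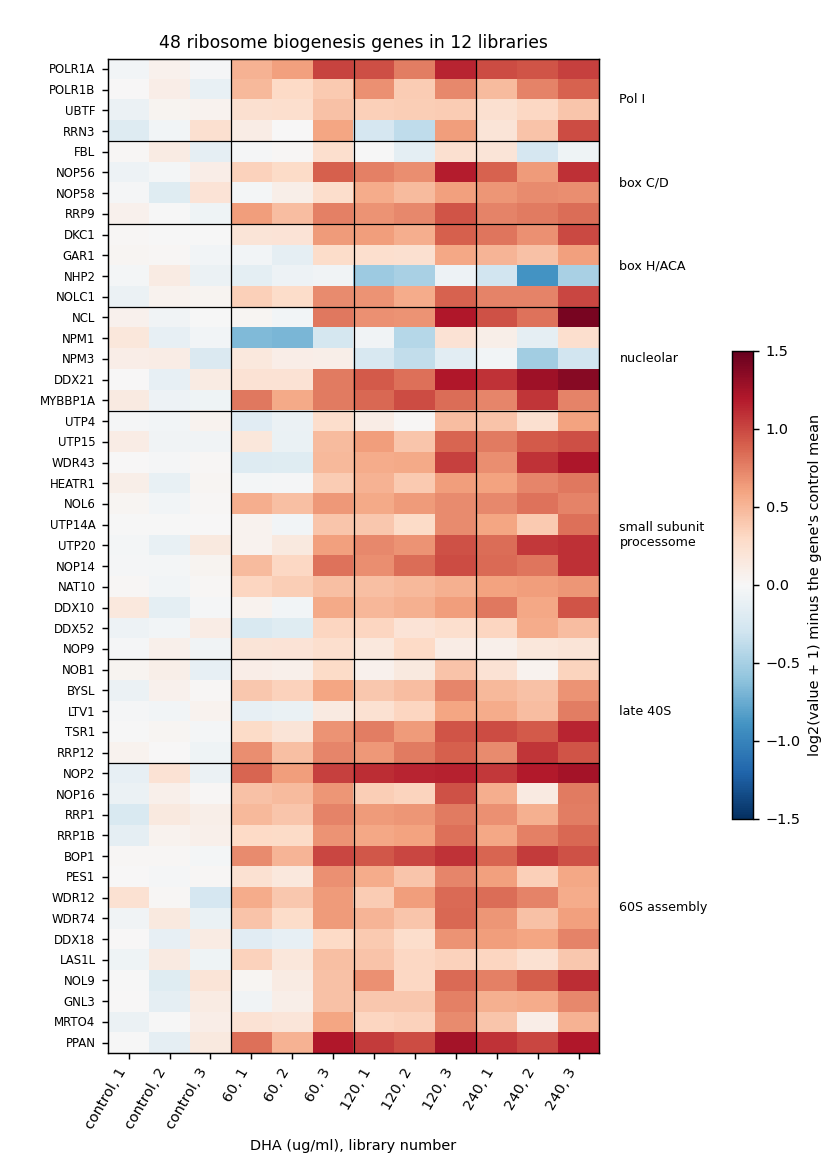
Each row is 1 of the 48 genes, grouped by role, and each column 1 of the 12 libraries, from control on the left to 240 ug/ml on the right. Colour gives log2(value + 1) minus the gene's control mean. Most rows average above their control mean at 240 ug/ml, while NHP2, NPM3 and FBL do not.

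**Figure D2:**
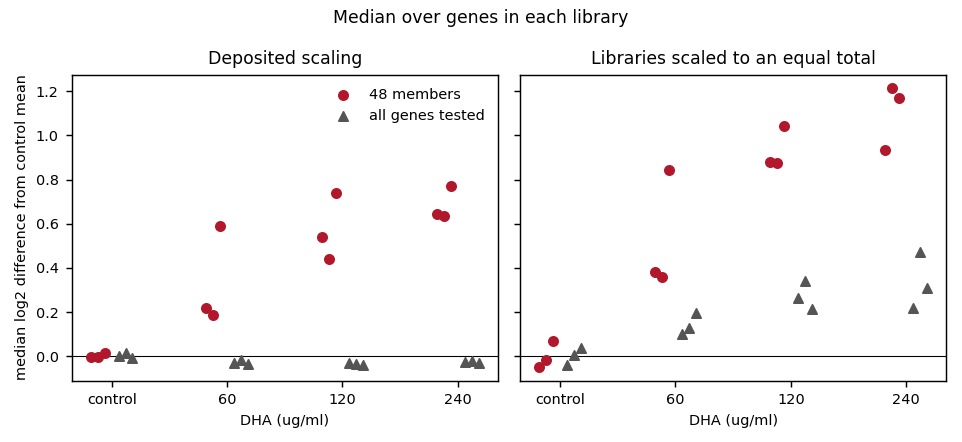
The median log2 difference from the control mean is plotted for each library, for the 48 genes (circles) and for all genes tested (triangles), on the deposited scale and with equal library totals in separate panels. The circles of the DHA libraries lie above the triangles in both panels, and at 60 ug/ml the third library (0.59) lies above the other 2 (0.22 and 0.19).

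The deposited scale matters for the size of these differences. With library totals set equal, the median log2 fold change at 240 ug/ml was 0.34 over all genes and 1.12 over the 48, and limma called 46 of the 48 higher and 0 lower, beside 43.3% of all genes called higher and 9.03% lower. The median of the 48 genes lay above that of all genes on both scales. NHP2 was not called on that scale (-0.13, adjusted p = 0.378), so its lower value is stated only for the deposited scale. No label says that the libraries of a group are separate cultures, so the p-values here reflect only their spread, which could be technical.

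RNA polymerase I genes were called higher at every dose in 3 of 4 cases, with a median log2 fold change of 0.62 at 240 ug/ml. POLR1A (chromosome 2, 86020216 to 86106155, minus strand; gene coordinates are those of GENCODE 29 on GRCh38), the largest catalytic subunit, had a signal of 11.8, 12.8 and 12 in control, 17.9, 19.2 and 25.6 at 60, 24.8, 21.5 and 28.2 at 120 and 24.9, 24.4 and 25.9 at 240 ug/ml. Every DHA library lay above every control library, and the level at 240 ug/ml was 2.05 times that of control. The log2 fold change of POLR1A was 0.98 ± 0.13 (SE; limma adjusted p = 0.000125). UBTF (chromosome 17, 44205033 to 44221626, minus strand), the HMG-box factor that opens ribosomal DNA for the polymerase, had 42.9, 47.1 and 47.5 in control, 54.3, 54.8 and 62.3 at 60, 58.9, 59.4 and 60.0 at 120 and 54.1, 57.2 and 61.5 at 240 ug/ml. Its rise was the smallest of the 4 (0.32 ± 0.08, adjusted p = 0.00526), its libraries at the 3 doses overlapped each other, and the call at 240 ug/ml was lost when a trend with transcript length was subtracted (0.19, adjusted p = 0.0574). POLR1B, the second catalytic subunit, averaged 28.6 ± 4.14 at 240 ug/ml and 17.1 ± 1.3 in control (SD, n = 3 each; log2 fold change 0.70). At 60 ug/ml the call of POLR1B was lost when any 1 library of control or of that dose, or library 1 at 120 ug/ml, was left out, and that of UBTF was lost without control library 1 (0.27) and with the trend with GC content subtracted (0.23). RRN3, the factor that recruits the polymerase and a gene with pseudogene copies that could share its reads, was not called at any dose on the deposited scale, and with equal totals it was called higher at 240 ug/ml (0.93, adjusted p = 0.0133). Its libraries at 240 ug/ml, 11.0, 13.2 and 19.8, overlapped the control libraries at 8.2, 9.2 and 11.4.

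Among the box C/D snoRNP genes, which encode the rRNA methylation machinery, 3 of 4 were called higher at 240 ug/ml, with a median of 0.74. NOP56 (chromosome 20, 2652145 to 2658393, plus strand), a scaffold of the particle, had 216.4, 223.4 and 243.4 in control, 289.8, 278.1 and 424.6 at 60, 385.3, 370.8 and 514.9 at 120 and 422.2, 355.9 and 485.3 at 240 ug/ml. All 9 DHA libraries were above the control libraries, and the log2 fold change at 240 ug/ml was 0.87 ± 0.18 (adjusted p = 0.00216). RRP9, which binds the U3 snoRNA, averaged 27.3 ± 1.01 at 240 ug/ml and 15.4 ± 0.751 in control (log2 fold change 0.79), and NOP58, the partner of NOP56, averaged 123 ± 1.97 and 76.1 ± 10.2 (0.69). FBL, fibrillarin, the methyltransferase of the same particle (chromosome 19, 39834458 to 39846414, minus strand), did not follow them. Its signal was 216.7, 233.2 and 194.1 in control, 212.1, 217.3 and 255.5 at 60, 213.3, 193.9 and 253.2 at 120 and 244.3, 179.5 and 204.8 at 240 ug/ml. The groups overlapped at every dose, and the log2 fold change at 240 ug/ml was -0.04 ± 0.13 (adjusted p = 0.824). With equal totals FBL stood at 0.39 (adjusted p = 0.0104), close to the median of all genes on that scale.

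Box H/ACA snoRNP genes, which encode the pseudouridylation machinery, divided in direction. NOLC1 (chromosome 10, 102152176 to 102163871, plus strand), the chaperone also called Nopp140, had 95.8, 106.1 and 104.8 in control, 130.9, 123.5 and 168.2 at 60, 163.0, 150.9 and 189.8 at 120 and 171.5, 171.1 and 205.0 at 240 ug/ml, all DHA libraries lying above control (log2 fold change at 240 ug/ml 0.83 ± 0.13, adjusted p = 0.000374). DKC1, the pseudouridine synthase itself, averaged 123 ± 13.5 at 240 ug/ml and 68.8 ± 0.551 in control (0.83), and GAR1, a core subunit, averaged 105 ± 6.64 and 73.0 ± 1.8 (0.52). NHP2 (chromosome 5, 178149460 to 178153967, minus strand), a core RNA-binding subunit of the same particle, had 212.2, 235.4 and 203.7 in control, 195.6, 206.0 and 208.4 at 60, 148.1, 154.2 and 205.5 at 120 and 177.5, 115.9 and 153.9 at 240 ug/ml. Every library at 240 ug/ml lay below every control library, whereas the lower doses overlapped control. Its log2 fold change at 240 ug/ml was -0.56 ± 0.15 (adjusted p = 0.012).

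Of the 5 other abundant nucleolar proteins 3 were called higher at 240 ug/ml, and 1 of them, DDX21, had the largest fold change of the 48 genes. DDX21 (chromosome 10, 68956128 to 68985073, plus strand), an RNA helicase that works on ribosomal DNA and on snoRNA binding, had 72.1, 66.2 and 78.4 in control, 83.6, 83.7 and 124.0 at 60, 136.9, 128.3 and 166.7 at 120 and 153.6, 174.9 and 187.7 at 240 ug/ml. The level at 240 ug/ml was 2.38 times that of control, and the log2 fold change was 1.24 ± 0.15 (adjusted p = 0.000105). NCL, nucleolin, had 354.8, 323.5 and 491.5 at 240 ug/ml, against 191.0, 176.4 and 181.8 in control (log2 fold change 1.06 ± 0.23, adjusted p = 0.00282). MYBBP1A, a nucleolar protein that binds the MYB transcription factor, averaged 52.7 ± 7.54 at 240 ug/ml and 28.7 ± 2.46 in control (0.85).

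The nucleophosmin genes were not called against control at any dose under the settings used throughout. Their calls varied with the scaling, the transcripts and the libraries used. NPM1 (chromosome 5, 171387116 to 171411137, plus strand), a histone chaperone and nucleolar scaffold, had 1120.3, 914.1 and 975.1 in control, 632.4, 619.6 and 835.2 at 60, 963.9, 744.1 and 1160.0 at 120 and 1063.1, 909.3 and 1189.2 at 240 ug/ml. Its libraries at 60 ug/ml were all below control while those at 240 ug/ml overlapped it (log2 fold change at 240 ug/ml 0.07 ± 0.18, adjusted p = 0.786). At 60 ug/ml NPM1 was not called over all its transcripts but was called lower over its protein-coding ones (-0.56, adjusted p = 0.0228). NPM1 was called higher at 240 ug/ml with equal totals (0.50, adjusted p = 0.019) and with quantile normalization (0.77, adjusted p = 0.00119). NPM1 has many pseudogenes, so its level is uncertain. NPM3, a shorter relative, had 146.6, 147.2 and 117.7 in control, 152.3, 146.5 and 145.5 at 60, 115.0, 105.5 and 122.4 at 120 and 132.9, 94.8 and 111.6 at 240 ug/ml. These groups overlapped at every dose (log2 fold change at 240 ug/ml -0.28 ± 0.12, adjusted p = 0.0843), and with equal totals the value was 0.15 and not called. NPM3 was called lower at 240 ug/ml without control library 3 (-0.39) or library 1 at 240 ug/ml (-0.40), and higher at 60 ug/ml with equal totals (0.32, adjusted p = 0.0195). Over protein-coding transcripts alone it was called lower at 240 ug/ml (-0.45, adjusted p = 0.0138). The F statistic over the 4 groups called it as well (adjusted p = 0.0435).

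Early small-subunit factors, which form the particle that first folds and cuts the precursor, were called higher at 240 ug/ml in 11 of 12 cases, with a median of 0.73. UTP20 (chromosome 12, 101280109 to 101386616, plus strand), a large scaffold protein, had 6.8, 6.4 and 7.8 in control, 7.3, 7.8 and 11.2 at 60, 12.1, 11.7 and 14.5 at 120 and 13.3, 15.6 and 16.1 at 240 ug/ml. Its libraries overlapped control at 60 ug/ml and separated from it at 120 and 240 ug/ml, with a log2 fold change of 1.00 ± 0.15 at the highest dose (adjusted p = 0.000282). UTP4 (chromosome 16, 69131291 to 69231130, plus strand), a subunit that also supports transcription of ribosomal DNA, had 76.2, 74.8 and 79.9 in control, 68.0, 72.6 and 92.9 at 60, 83.5, 77.9 and 106.6 at 120 and 103.6, 91.4 and 117.8 at 240 ug/ml. UTP4 was called only in the comparison at 240 ug/ml (0.43 ± 0.14, adjusted p = 0.0287), and that call was lost without control library 1 or 2 or without library 1 or 3 at 240 ug/ml. NOP9 (chromosome 14, 24299862 to 24309124, plus strand), an RNA-binding factor, had 6.8, 7.3 and 6.6 in control, 8.0, 8.1 and 8.4 at 60, 7.8, 8.7 and 7.5 at 120 and 7.3, 7.9 and 8.0 at 240 ug/ml. It was the member of the group not called (0.14 ± 0.08, adjusted p = 0.185; with equal totals 0.52 and called higher), although all libraries at 60 and 120 ug/ml lay above control.

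WDR43 and UTP15, which sit with UTP4 in the same subcomplex, averaged 79.4 ± 14.3 and 17.1 ± 1.14 at 240 ug/ml and 38.9 ± 0.529 and 8.77 ± 0.635 in control. HEATR1, a further subunit of it, averaged 37.6 ± 2.59 and 22.7 ± 1.69 (log2 fold change 0.71). NAT10, which acetylates rRNA, had the smallest standard error of the 48 genes, 0.06, around a log2 fold change of 0.63, with 30.1, 30.7 and 31.4 at 240 ug/ml and 19.7, 19.0 and 19.8 in control. NOP14 and NOL6, 2 scaffold factors, had log2 fold changes of 0.92 and 0.76, and the helicases DDX10 and DDX52 had 0.77 and 0.45. UTP14A, which has a retrocopy that could share its reads, had 0.61. The call of DDX52 was lost without control library 1, without library 2 at 240 ug/ml, and over protein-coding transcripts alone.

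Late small-subunit factors, which act on the particle during and after export to the cytoplasm, were called higher at 240 ug/ml in 4 of 5 cases. TSR1 (chromosome 17, 2322503 to 2337507, minus strand), a GTPase-like protein that blocks early joining of the subunits, had 34.3, 35.2 and 33.8 in control, 42.2, 39.4 and 55.5 at 60, 59.5, 54.3 and 67.3 at 120 and 68.9, 66.2 and 77.0 at 240 ug/ml. The level at 240 ug/ml was 2.05 times that of control (log2 fold change 1.01 ± 0.12, adjusted p = 8.27e-05). NOB1 (chromosome 16, 69741867 to 69754940, minus strand), the endonuclease that makes the last cut of the small-subunit rRNA, had 56.5, 58.5 and 50.4 in control, 58.8, 58.1 and 67.3 at 60, 57.5, 61.0 and 74.2 at 120 and 64.3, 57.3 and 69.9 at 240 ug/ml. NOB1 overlapped control at every dose and was not called (0.21 ± 0.11, adjusted p = 0.156). It was called higher at 240 ug/ml with equal totals (0.63, adjusted p = 0.000471), with quantile normalization (0.25, adjusted p = 0.0294) and with the trend with transcript length subtracted (0.33, adjusted p = 0.0213). RRP12, BYSL and LTV1, which accompany the particle on its way out of the nucleus, were called higher, with log2 fold changes of 0.91, 0.54 and 0.59.

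Large-subunit factors were called higher in 13 of 14 cases at 240 ug/ml, in 14 of 14 at 120 ug/ml and in 8 of 14 at 60 ug/ml, where 4 were called without the third library of that dose and 5 with the trend with GC content subtracted. NOP2 (chromosome 12, 6556863 to 6568691, minus strand), which methylates the large-subunit rRNA, had 30.0, 38.0 and 30.6 in control, 60.8, 51.0 and 67.8 at 60, 71.6, 73.1 and 73.9 at 120 and 69.2, 76.0 and 79.2 at 240 ug/ml. It was already 1.82 times the control level at 60 ug/ml and reached 2.28 times at 240 ug/ml (log2 fold change 1.17 ± 0.11, adjusted p = 2.54e-05), the lowest adjusted p of the 48 genes. LAS1L (chromosome X, 65512582 to 65534775, minus strand), an endonuclease that cuts the spacer between the large-subunit RNAs, had 26.8, 30.8 and 26.7 in control, 35.8, 31.8 and 38.8 at 60, 38.0, 35.0 and 35.9 at 120 and 35.3, 33.0 and 37.5 at 240 ug/ml. LAS1L changed by a small amount and stayed level over the doses (0.32 ± 0.09, adjusted p = 0.0131), and its call was lost without control library 1 (0.29) or library 3 at 240 ug/ml (0.28). NOL9, the kinase that works with LAS1L, averaged 17.5 ± 2.27 at 240 ug/ml and 8.73 ± 1.31 in control (0.93).

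The 3 genes of the PeBoW complex, PES1, BOP1 and WDR12, were all called higher at 240 ug/ml. PES1 (chromosome 22, 30576625 to 30607083, minus strand) had 79.6, 78.7 and 80.3 in control, 93.2, 89.2 and 128.5 at 60, 117.9, 106.7 and 132.6 at 120 and 122.7, 101.9 and 119.6 at 240 ug/ml, with no overlap with control at any dose (0.52 ± 0.13, adjusted p = 0.00805). BOP1 averaged 32.0 ± 2.1 at 240 ug/ml and 15.9 ± 0.289 in control, and WDR12 61.5 ± 6.07 and 37.4 ± 6.3. PPAN, a factor for large-subunit rRNA whose reads can include read-through transcripts with the gene next to it, averaged 63.5 ± 4.49 and 29.2 ± 3.01 (1.10). RRP1 and RRP1B, relatives with roles in large-subunit processing, had log2 fold changes of 0.66 and 0.73. DDX18, GNL3 (nucleostemin) and WDR74 had 0.65, 0.60 and 0.57. NOP16, at 0.49, was called in the full set but lost its call when any 1 of 7 libraries was left out, among them each control library. MRTO4, which prepares the site of the ribosomal stalk, had 59.6, 47.6 and 64.5 at 240 ug/ml, against 41.7, 44.5 and 47.6 in control, and was called higher at 120 ug/ml alone in the full set. At 240 ug/ml MRTO4 (0.34, adjusted p = 0.0738) was called with equal totals (0.77), with quantile normalization (0.38), with only the 2 groups fitted (0.34) and without library 2 at 240 ug/ml (0.47) or library 3 at 60 ug/ml (0.34), and at 120 ug/ml its call was lost without control library 1 or 2 or library 3 at that dose.

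**Figure D3:**
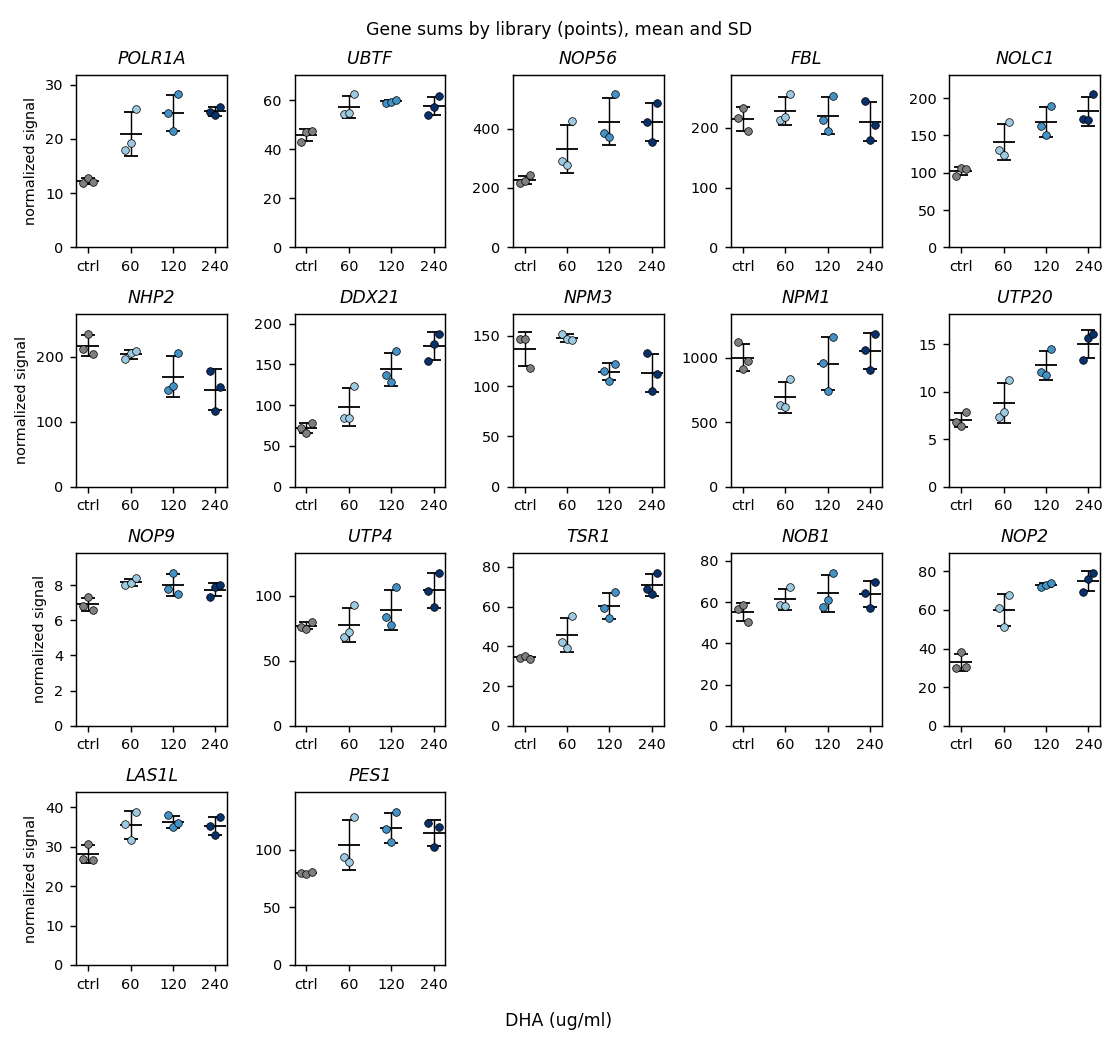
Points give the normalized signal of single libraries, horizontal bars the mean and vertical bars the SD (n = 3), for the 17 genes described with all 12 values, with control on the left and 60, 120 and 240 ug/ml to its right in each panel. NOP2, DDX21 and TSR1 at 240 ug/ml lie at more than their control level, FBL stays between 179.5 and 255.5, and NHP2 at 240 ug/ml lies below control.

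The doses differed in which genes were called. The same 20 genes were called higher at all 3 doses, among them POLR1A, POLR1B, UBTF, NOP2, BOP1, RRP9 and RRP12. A further 18 were called at 120 and 240 ug/ml and not at 60 ug/ml, among them DDX21, NCL, DKC1, NOP58, UTP20, WDR43 and DDX18. DDX52 and UTP4 were called higher at 240 ug/ml only, and FBL, NOB1, NOP9, NPM1, NPM3 and RRN3 at no dose under the settings used throughout. In the direct test of 120 against 60 ug/ml NOP58 alone was called (0.44 ± 0.10, adjusted p = 0.049), beside 0.536% of all genes called higher and 1.61% lower. At an unadjusted p under 0.05 limma had 21 of the 48 higher and 1 lower. Those shares of all genes do not apply to that looser threshold, for which none was taken. In the test of 240 against 120 ug/ml 0 of the 48 were called by limma, beside 0% of all genes. There 1 gene had an unadjusted p under 0.05, again with no share of all genes taken. The median was 0.10, and 33 of 48 were above 0. An F statistic over the 4 groups called 40 of the 48, beside 42.7% of all genes.

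The number of genes called between 120 and 60 ug/ml varied with the libraries and the transcripts used. Over coding transcripts alone 7 were called higher at 120 ug/ml, beside 2.29% of all genes. Without the third library at 60 ug/ml, 25 of the 48 genes were called higher at 120 than at 60 ug/ml, beside 6.25% of all genes, and 0 lower, beside 7.85%. Against control, leaving out that library left 13 genes called higher at 60 ug/ml, beside 7.17% of all genes, and called NPM1 lower, beside 7.88%. Leaving out control library 1 left 12 and control library 3 left 13, and no share of all genes is given for these. The NCL values show the same library apart, with 186.8 and 177.6 in the first and second libraries at 60 ug/ml and 316.9 in the third, against 191.0, 176.4 and 181.8 in control.

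Genes called at 60 ug/ml had a higher median GC content than those called at 120 and not at 60 ug/ml. Their main transcripts were also longer, with a median of 3687 bases beside 2315. The main transcripts of the 20 genes called at 60 ug/ml had a median GC content of 54.8% (range 40.3% to 65.2%), and those of the 19 called at 120 and not at 60 ug/ml had 43.8% (39.7% to 58.1%). Across the 48 genes, which come from the same libraries, Pearson's r between GC content and log2 fold change was 0.57 at 60, 0.15 at 120 and -0.14 at 240 ug/ml. Over all 16776 genes it was 0.26, 0.02 and -0.10. By library, r across the 48 genes at 60 ug/ml was 0.62 in library 1, 0.60 in library 2 and 0.39 in library 3. Control libraries 1, 2 and 3 had -0.18, 0.49 and -0.3, so single libraries without DHA varied with GC content as well. In control library 2 the median difference from the control mean was 0.05 above the median GC content and -0.04 below it. In libraries 1 and 2 at 60 ug/ml that difference was 0.42 and 0.33 for the genes above the median GC content. For the genes below it the difference was 0.05 in both. In library 3 at 60 ug/ml it was 0.65 above and 0.46 below. Subtracting the trend of fold change with GC over all genes left 15 of the 48 called higher at 60, 39 at 120 and 40 at 240 ug/ml, beside 6.4%, 15.8% and 18.6% of all genes. What lay behind the relation at 60 ug/ml was not tested.

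**Figure D4:**
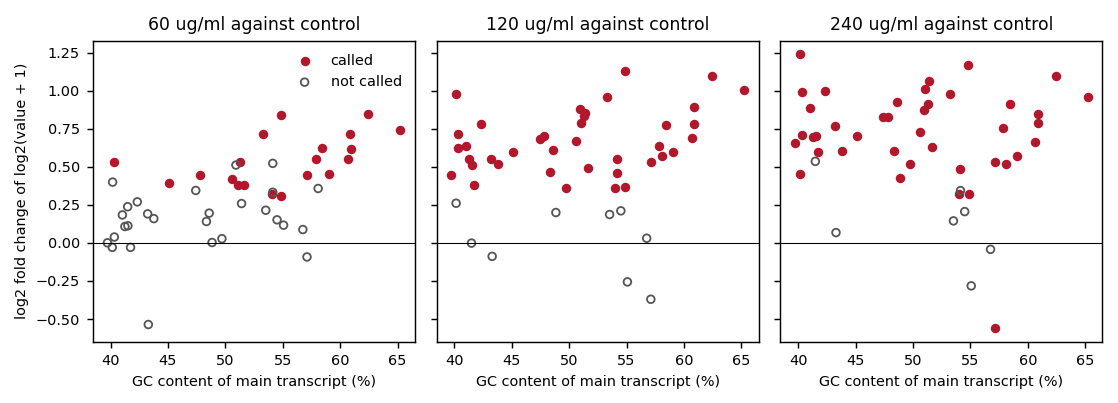
The log2 fold change of each of the 48 genes is plotted against the GC content of its main transcript in percent, with filled points for called genes and open points for genes not called. At 60 ug/ml the called genes lie mostly at higher GC content (r = 0.57), and at 240 ug/ml they spread over the whole range (r = -0.14).

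The promoter windows of RefSeq (GRCh38.p14, 250 bases before to 50 after the start) matched 41 of the 48 genes, and CACGTG was present in 15 of them (36.6%). It was present in 7.43% of all 27305 windows and in 10.4% of the 10279 windows of tested protein-coding genes. The motif reads the same on both strands. The CCAAT box, the TATA box (TATAAA) and an ETS core (GGAAGT) were searched as written and as reverse complements, and none of the 4 motifs contains another. CCAAT was in 34.1% of the 41 windows and 36.7% of those of tested genes, TATAAA in 4.88% and 5.3%, and GGAAGT in 41.5% and 27.4%. The windows of the 41 genes had a median GC content of 63.0%, against 65.7% in tested protein-coding genes. Of the 15 genes with CACGTG 13 were called higher at 240 ug/ml, with a median of 0.63, and of the 26 without it 20 were, with a median of 0.68. No test was made between these sets. The windows of NOP2, UTP20 and FBL are shown. These are the genes named for the highest or lowest fold change of their role whose window holds CACGTG. NOP2 and UTP20 were called higher at 240 ug/ml, and FBL was not called on the deposited scale. All letters run 5′ to 3′ on the gene's own strand, and CACGTG is in capitals.
NOP2, chr12:6568242-6568541, minus strand: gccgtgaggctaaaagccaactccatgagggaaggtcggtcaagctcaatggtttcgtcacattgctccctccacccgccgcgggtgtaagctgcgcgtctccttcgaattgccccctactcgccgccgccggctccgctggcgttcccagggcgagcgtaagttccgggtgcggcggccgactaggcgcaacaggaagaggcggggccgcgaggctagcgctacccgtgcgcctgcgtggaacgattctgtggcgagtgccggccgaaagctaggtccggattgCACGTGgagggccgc
UTP20, chr12:101279855-101280154, plus strand: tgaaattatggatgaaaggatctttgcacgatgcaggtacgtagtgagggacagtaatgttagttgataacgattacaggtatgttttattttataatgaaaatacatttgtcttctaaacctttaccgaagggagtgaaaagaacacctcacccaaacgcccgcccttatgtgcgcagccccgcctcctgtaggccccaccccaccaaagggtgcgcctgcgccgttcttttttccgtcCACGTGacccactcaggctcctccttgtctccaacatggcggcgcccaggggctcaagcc
FBL, chr19:39846330-39846629, minus strand: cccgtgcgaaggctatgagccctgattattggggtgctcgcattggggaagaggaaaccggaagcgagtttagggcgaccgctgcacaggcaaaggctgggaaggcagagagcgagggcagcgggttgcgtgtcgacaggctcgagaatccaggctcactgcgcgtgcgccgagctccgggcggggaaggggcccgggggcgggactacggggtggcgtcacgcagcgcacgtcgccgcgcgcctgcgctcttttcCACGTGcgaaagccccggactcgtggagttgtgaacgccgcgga
Counting the start as base 1, the motif began at base 36 in NOP2, 10 bases before the start in UTP20 (position -10) and at base 7 in FBL. A match in these letters describes the sequence and does not show that a factor was bound.

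The kinds of transcript behind the gene sums were then compared. Protein-coding transcripts held 82.89%, 81.42% and 83.05% of the summed signal of the 48 genes at 240 ug/ml, against 84.85%, 87.84% and 85.87% in control. In 23 genes they held at least 90%, and in 4 under 50%: NOP56 (32.4%), GAR1 (38.8%), DDX52 (5.68%) and WDR12 (0.8%). In GAR1 the retained-intron model GAR1-204 had a mean of 62.9 ± 2.0 at 240 ug/ml and 45.4 ± 1.22 in control, and the coding GAR1-202 had 40.9 ± 4.84 and 26.7 ± 1.75. In NOP56 the non-coding NOP56-216 had 148 ± 44.5 and 76.5 ± 11.5, and the main coding model had 125 ± 15.8 and 83.8 ± 2.32. In both genes the means of both kinds of model were higher at 240 ug/ml. The NCL sum rested on NCL-203, a short coding model of 568 bases that carried 98.0% of it. The levels of NCL, NOP56, GAR1, DDX52 and WDR12 are therefore uncertain as measures of the full-length coding RNA. Over coding transcripts alone 37 of 47 testable genes were called higher at 240 ug/ml and 2, NHP2 and NPM3, lower, beside 23.3% and 30.3% of all genes in that fit.

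The ratio of non-coding to coding signal within a gene compares 2 parts of its sum, so it is not independent of the sums. It was tested in 36 of the 48 genes with both kinds present. At 240 ug/ml 0 were called higher and 3 lower than control by limma, beside 7.53% and 1.29% of 7823 genes. At an unadjusted p under 0.05, for which no share of all genes was taken, there were 4 in each direction. RRP12 had a log2 ratio change of -1.24 ± 0.20 (adjusted p = 0.00373), with a coding signal of 33.4, 42.2 and 39.7 at 240 ug/ml and 18.2, 17.9 and 16.4 in control. Its non-coding signal was 3.3, 5.2 and 3.5 at 240 ug/ml and 4.7, 4.2 and 4.6 in control. BOP1 (-1.15 ± 0.21, adjusted p = 0.00688) had coding values of 27.4, 30.4 and 29.7 at 240 ug/ml and 12.7, 13.2 and 13.2 in control, with non-coding values of 2.5, 3.7 and 2.2 and of 3.4, 2.9 and 2.4. HEATR1 (-0.94 ± 0.21, adjusted p = 0.0174) had coding values of 34.3, 37.5 and 39.0 at 240 ug/ml and 22.7, 20.1 and 22.4 in control. Its non-coding values were 0.5, 0.6 and 0.9 at 240 ug/ml and 1.4, 0.7 and 0.7 in control, mostly below the added 1. The call of HEATR1 was lost without control library 1, without library 2 at 240 ug/ml and with a pseudocount of 0.1. In all 3 genes the coding libraries did not overlap control while the non-coding ones did. Coding transcripts held 90.65%, 91.3% and 98.24% of the RRP12, BOP1 and HEATR1 sums at 240 ug/ml. Their lower ratios therefore largely repeat the rise already seen in the sums. The highest ratio changes, 1.47 in NOLC1, 1.45 in NPM1 and 0.85 in FBL, were not called (adjusted p = 0.115, 0.603 and 0.0507).

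**Figure D5:**
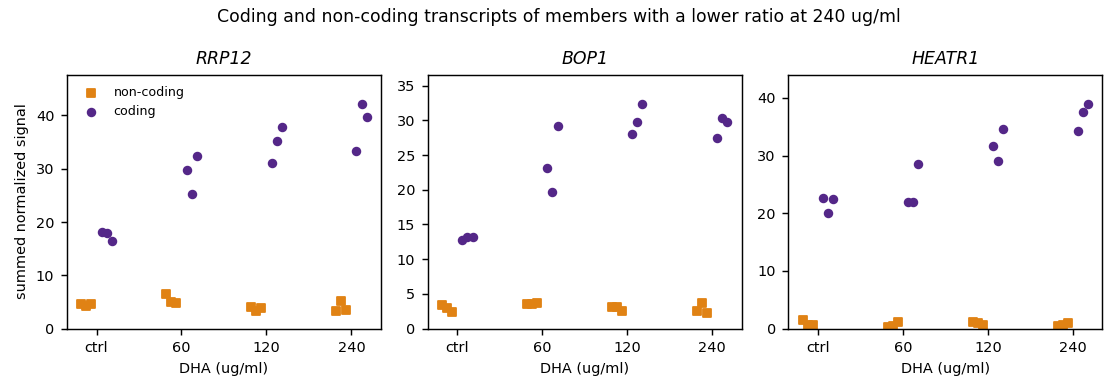
The summed normalized signal of coding and of non-coding transcripts is plotted by library for RRP12, BOP1 and HEATR1, with control on the left and 60, 120 and 240 ug/ml to its right. The coding points at 240 ug/ml lie above all those of control, and the non-coding points at 240 ug/ml overlap those of control.

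Other genes of the pathway, 134 in 5 lists by role, were also called higher more often than lower. At 240 ug/ml 77 of the 134 were called higher and 8 lower, beside 19.7% and 23.5% of all genes. Their median was 0.44, beside 0.70 for the 48 genes. At 120 ug/ml 62 were called higher and 9 lower, beside 15.9% and 20.8% of all genes. At the lowest dose 25 were called higher and 7 lower, beside 8.87% and 10.1% of all genes. With equal totals the counts at 240 ug/ml were 119 and 3, beside 43.3% and 9.03% of all genes. The list counts that follow are at 240 ug/ml on the deposited scale, where the shares of all genes were 19.7% and 23.5%. Of 13 further RNA polymerase I genes 7 were called higher and 1 lower. TCOF1, treacle, which organizes ribosomal DNA transcription, averaged 48 ± 3.3 at 240 ug/ml and 23.0 ± 1.72 in control (log2 fold change 1.03). POLR1D, a subunit shared with RNA polymerase III, averaged 72.2 ± 7.73 and 101 ± 5.17 (-0.48), and was not called with equal totals (-0.05). Of 45 further small-subunit factors 24 were called higher and 1 lower, and of 50 large-subunit factors 35 and 1. WDR3 (1.17) and GTPBP4 (1.06), an assembly GTPase, had the highest values of those lists, and TSR2 (-0.34, not called with equal totals) and NOP53 (-0.79) the lowest.

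Of 12 genes for snoRNP assembly 6 were called higher, led by NAF1 (0.80), an H/ACA assembly factor, and 3 lower, beside 19.7% and 23.5% of all genes, so the share called lower was near that of all genes. The lowest was NOP10, the smallest core subunit of the H/ACA particle that also holds NHP2, with 148 ± 43.5 at 240 ug/ml and 325 ± 7.39 in control (-1.18 ± 0.20, adjusted p = 0.000707). NOP10 was also called lower with equal totals (-0.75), unlike NHP2. Of 14 exosome and RNA decay genes 5 were called higher and 2 lower, beside the same 19.7% and 23.5% of all genes. EXOSC6 stood at 1.02 and EXOSC1 at -0.47 (-0.04 and not called with equal totals). Among 9 genes of the MYC network 2 were called higher and 2 lower, which is near the shares of all genes (19.7% and 23.5%). With equal totals 5 and 2 were, beside 43.3% and 9.03% of all genes. MYC averaged 173 ± 6.65 in control, 237 ± 26.9 at 60, 266 ± 13.5 at 120 and 283 ± 11.7 at 240 ug/ml (0.71 ± 0.09 at 240 ug/ml, adjusted p = 0.000113), and MGA was higher (0.66). MXD4 and MXD3, which pair with MAX and repress E-box genes, averaged 22.1 ± 1.12 and 11.8 ± 2.51 at 240 ug/ml and 47.1 ± 5.55 and 23.6 ± 2.03 in control. MAX (0.22), MNT (0.08), MXD1 (-0.24), MXI1 (-0.24) and MLX (-0.06) were not called. Whether MYC protein or its binding changed was not measured.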

How the data were processed

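Total RNA was poly(A)-selected and sequenced paired-end after dUTP second-strand synthesis, per the labels' protocols. The deposited table gives 1 normalized signal per transcript and library. GRCh38.p14 is the build in the submitters' processing notes. Unit, aligner and quantifier: not given in the sources used here. Library totals had a geometric mean of 999925, and 94.3% of values above 0 are not whole, so no count model was used and depth is unknown. The 48 genes, their roles and the lists were chosen with earlier results of these data known.

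Transcripts were matched by identifier to GENCODE 29 on GRCh38 (202246 of 267165, 75.7%, carrying 93.7% to 94.6% of the signal) and summed per gene, so a sum can miss a main transcript among the 5131 unmatched ones with a mean of at least 1. Genes with at least 1 in at least 3 libraries were tested with limma 3.58.1 (R 4.3.3), limma-trend on log2(value + 1), with 4 group means, 12 libraries and no covariates. Benjamini-Hochberg adjustment was over 16776 genes, two-sided, called at 0.05. The transcript ratio test ran over 7823 genes. Retained-intron, nonsense-mediated decay and processed transcripts counted as non-coding. Groups came from the sample titles.

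In each role the genes with the highest and lowest fold change at 240 ug/ml and the highest control level were named with all values, and in each other list the highest and the lowest. The genes outside that rule were chosen after their values were seen. The fit was tested on simulated data of the 240 ug/ml comparison (16776 genes), with normal noise and 50 genes changed at each size. It found 50% of true log2 changes sized 0.5, 88% sized 1 and 100% sized 2 or 3, and 10 calls (5.59%) were false. In the real comparison 19.7% of genes were called higher and 23.5% lower, far more than were changed there, so these rates need not hold for it. Alternatives were other pseudocounts, filters, scalings, trends, a replicate block, coding transcripts alone and each library left out.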

Additional observations from a re-analysis of the deposited data

How the results depend on the processing

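Under the alternatives other than leaving out a library, 37 to 46 of the 48 genes were called higher at 240 ug/ml. At 120 ug/ml 35 to 44 were, and at 60 ug/ml 14 to 29. The upper ends at 240, 120 and 60 ug/ml were reached with equal totals. That setting also called 43.3%, 36.5% and 16.6% of all genes higher. Counts below without a share of all genes beside them were not set against one. The F statistic called 37 to 46, and 2 to 4 ratios changed. Leaving out 1 library gave 36 to 41, 32 to 40 and 12 to 22 higher, 35 to 44 by the F statistic, 2 to 5 ratios, and 1 to 2 genes lower at 240, 0 to 1 at 120 and 0 to 1 at 60 ug/ml. At 240 ug/ml 0 were called lower with equal totals and 2 over coding transcripts alone. At 60 ug/ml 1 (NPM1) was called lower with a minimum of 5, over coding transcripts, with the replicate block (alone or with the GC or length trend) and with only the 2 groups fitted. For 120 against 60 ug/ml the count of 1 became 0 with a pseudocount of 0.1, no filter, equal totals, the GC trend or only the 2 groups, and 4 with a minimum of 5, 3 with quantile normalization, 7 over coding transcripts, 2 with the length trend, and 0 to 25 when 1 library was left out. The replicate block gave 17 (4.17% of all genes), 18 with the GC trend and 14 with the length trend, and it called 42 higher and 1 lower at 240 (21.6% and 25.5% of all genes), 39 at 120 (18%) and 26 higher and 1 lower at 60 ug/ml (11% and 12.7%). It also called RRN3 (0.54) and MRTO4 (0.34) higher at 240 ug/ml, which the fit without it did not. Libraries that share a number are not said to be paired: same-number correlations ran from -0.025 to 0.236 (6 of 18 pairs over 0.1), and 9 of 12 libraries correlated best with their own number. At 240 ug/ml, values with no call crossed 0 in 4 genes: FBL, -0.04, became 0.39 with equal totals, 0.19 with quantile normalization, 0.002 with the GC trend and 0.14 with the length trend (with or without the block), and ran from -0.16 to 0.063 when 1 library was left out, above 0 without control library 2 or library 2 at 240 ug/ml. NPM1, 0.07, became 0.50 with equal totals and 0.77 with quantile normalization, both called, and ran from -0.024 (without library 3 at 240 ug/ml) to 0.17 when 1 library was left out, NPM3 became 0.15 with equal totals, and NOP9 -0.028 with the length trend (with or without the block). The cause was not tested.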
